A study of Caenorhabditis elegans with 4 samples.

Results

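The hedgehog-related and patched-related genes of Caenorhabditis elegans were followed in early adults that had been starved as larvae, in mutants with the g14 allele of the fatty acid synthase gene fasn-1 and in wild-type animals. Members were the rows of the deposited table whose sequence name belongs to a gene called wrt, grd, grl, ptr, ptc or ptd with a number, or to qua-1 or hog-1, with at least 1 CPM (the authors' normalized reads per 1e6) in at least 2 of the 4 libraries. The annotation of WBcel235 names 86 such genes. Of these, 61 were in the table and 57 reached that level, among 12977 genes tested in all. They comprised 32 hedgehog-related genes (9 wrt, 10 grd, 11 grl, qua-1 and hog-1) and 25 patched-related genes (ptc-1, ptc-3 and 23 ptr). The other 25 annotated genes were not analysed here.

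The groups were fasn-1(g14) (strain GG14, 2 libraries) and wild type (strain N2 Bristol, 2 libraries), in each case numbered replicates 3 and 4. Both groups had spent 8 days without food at 20 °C as hatchlings, the halt of growth called L1 arrest. Of the survivors 750 were then fed HT115 bacteria carrying an empty vector, on plates with 25 µg/ml carbenicillin and 1 mM IPTG, for about 68 hours until they laid eggs, so every library comes from animals with a starved past and none from animals fed throughout. RNA was taken from whole animals washed off the plates, so each library pools many animals and all their tissues, and fewer cells of a type and less RNA per cell cannot be told apart.

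Hedgehog is a secreted signal that, in flies and vertebrates, is cut and joined to cholesterol by its own carboxy-terminal domain and is sensed by the membrane protein Patched. C. elegans has no close copy of Hedgehog itself. It has families of secreted proteins instead: warthog (wrt) and groundhog (grd) proteins, some of which carry the self-cutting Hog domain, quahog (qua-1) and hog-1, which also carry it, and ground-like (grl) proteins, which lack it. Its Patched proteins (ptc) and the many Patched-related proteins (ptr) are membrane proteins with a sterol-sensing domain. Many of these genes are expressed in the epidermis and in cells that line openings of the body, and several are needed for molting, the renewal of the cuticle between larval stages.

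The libraries held 13960509 to 15889424 recovered reads, so that 1 read was worth 0.0628 to 0.0676 CPM. Across all genes 1386 were lower and 572 higher in the mutant (limma, adjusted p below 0.05), which is 10.7% and 4.41% of those tested. With quantile normalization these counts were 1050 lower and 802 higher, and higher calls made up 43.3% of calls in place of 29.2%. The fasn-1 transcript stood at 353 and 285 CPM in the mutant and 369 and 410 CPM in wild type, a change that did not pass (log2 change -0.29, SE 0.11; limma, adjusted p = 0.1196), so its level does not check the genotype labels.

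The fitted change was below 0 in 49 of the 57 members (86.0%, beside 49.7% of all genes tested). Of the 57, 19 fell, 1 rose and 37 did not pass, so 33.3% fell, beside 10.7% of all genes tested, and 1.75% rose, beside 4.41%. The median log2 change of the members was -0.86, beside 0.00 for all genes tested, on the scale log2(CPM + 1), mutant minus wild type, which understates the change of low genes. In 44 members both mutant libraries lay below both wild-type libraries (77.2%, beside 32.9% of all genes tested), and in 7 both lay above (31.2% of all genes tested). The groups overlapped in 6 members. Of the 37 that did not pass, 30 had a negative log2 change, and 16 had an adjusted p below 0.1. The members grd-16, grl-14, grl-6 and ptr-17 reached 1 CPM in the wild-type libraries but in neither mutant library, and without these 4 members the counts were 18 lower and 1 higher of 53.

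**Figure D1:**
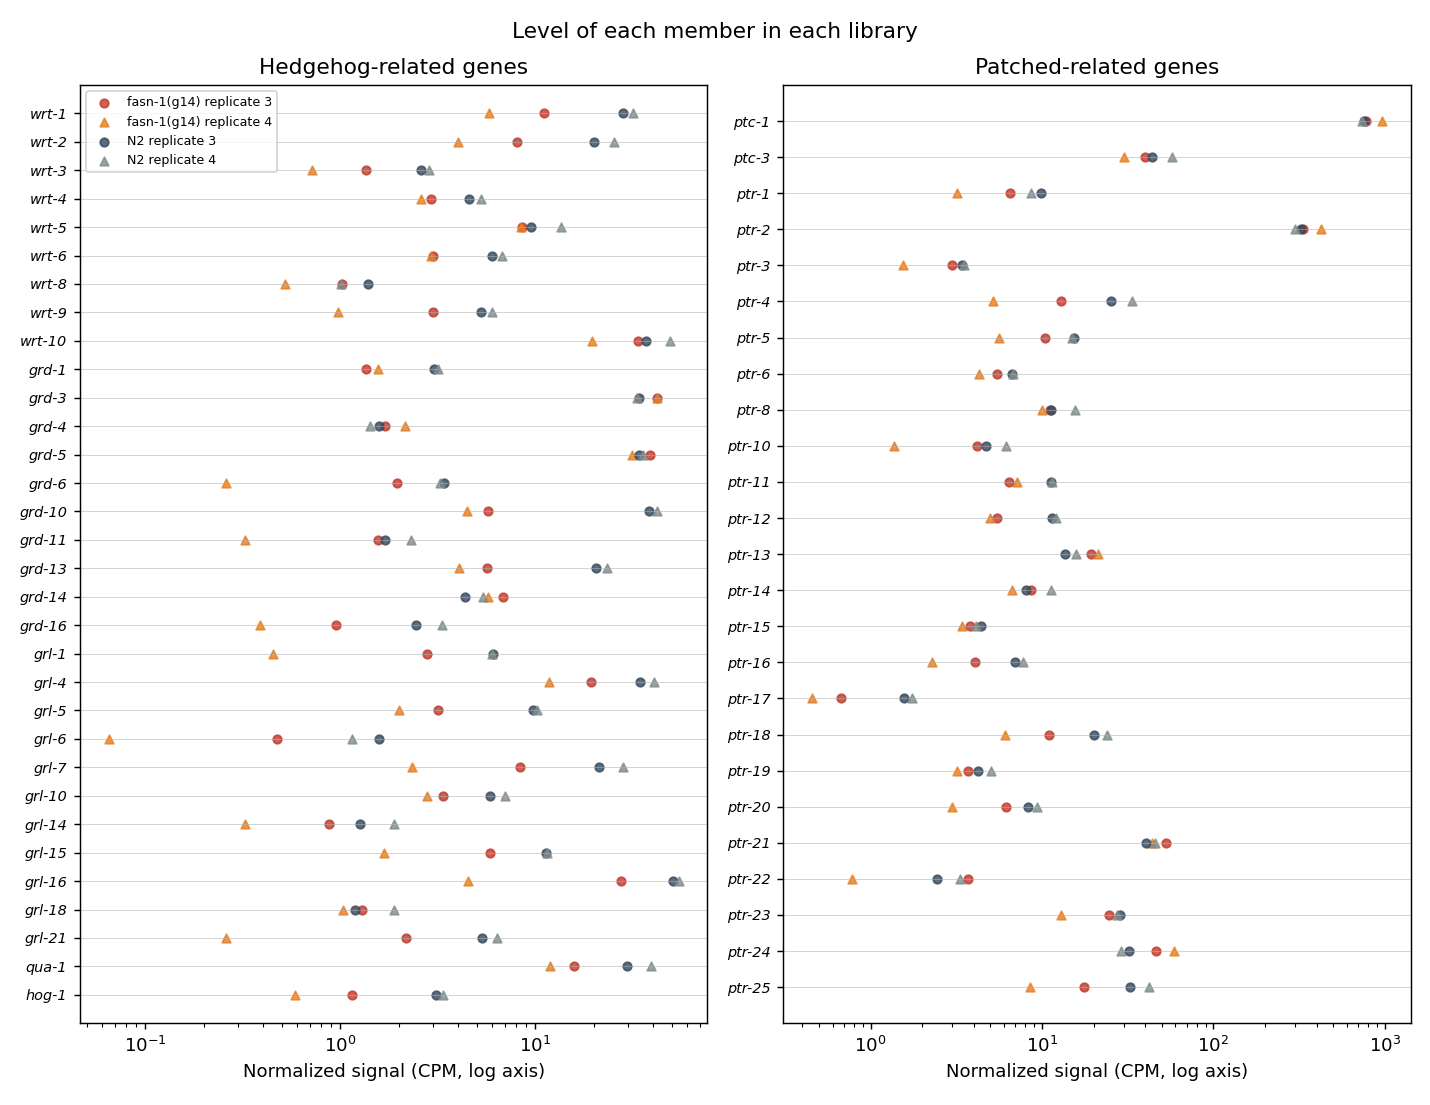
Normalized signal (CPM, log axis) of each of the 57 members in each library, with fasn-1(g14) in red and orange and N2 in dark blue and grey. For most genes the mutant points lie left of the wild-type points, with replicate 4 farthest left, while grd-3, grd-4, grd-14, ptc-1, ptr-2, ptr-13 and ptr-24 have both mutant points on the right.

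The secreted family had the lower median change of the pair, but the difference between the families was not tested. Among hedgehog-related genes 14 of 32 fell and 0 rose (43.8% lower, beside 10.7% of all genes tested), with a median log2 change of -1.03. Among patched-related genes 5 of 25 fell and 1 rose (20% and 4%, beside 10.7% and 4.41% of all genes tested), with a median of -0.52. At an unadjusted p below 0.05, 25 of the 32 hedgehog-related genes (78.1%) and 14 of the 25 patched-related genes (56.0%) passed, beside 32.9% of all genes tested. Without the members that passed the limit on low values through wild type alone, 13 of 29 hedgehog-related genes fell and 0 rose, and 5 of 24 patched-related genes fell and 1 rose. The summed signal of the 32 hedgehog-related genes was 271 and 177 CPM in mutant replicates 3 and 4, against 439 and 507 CPM in wild type. For the patched-related genes the sums were 1420 and 1630 CPM in the mutant and 1427 and 1434 CPM in wild type. Between 72.4% and 85.0% of that sum came from ptc-1 and ptr-2 alone. The remaining 23 patched-related genes summed to 307 and 244 CPM in the mutant, against 346 and 396 CPM in wild type.

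**Figure D2:**
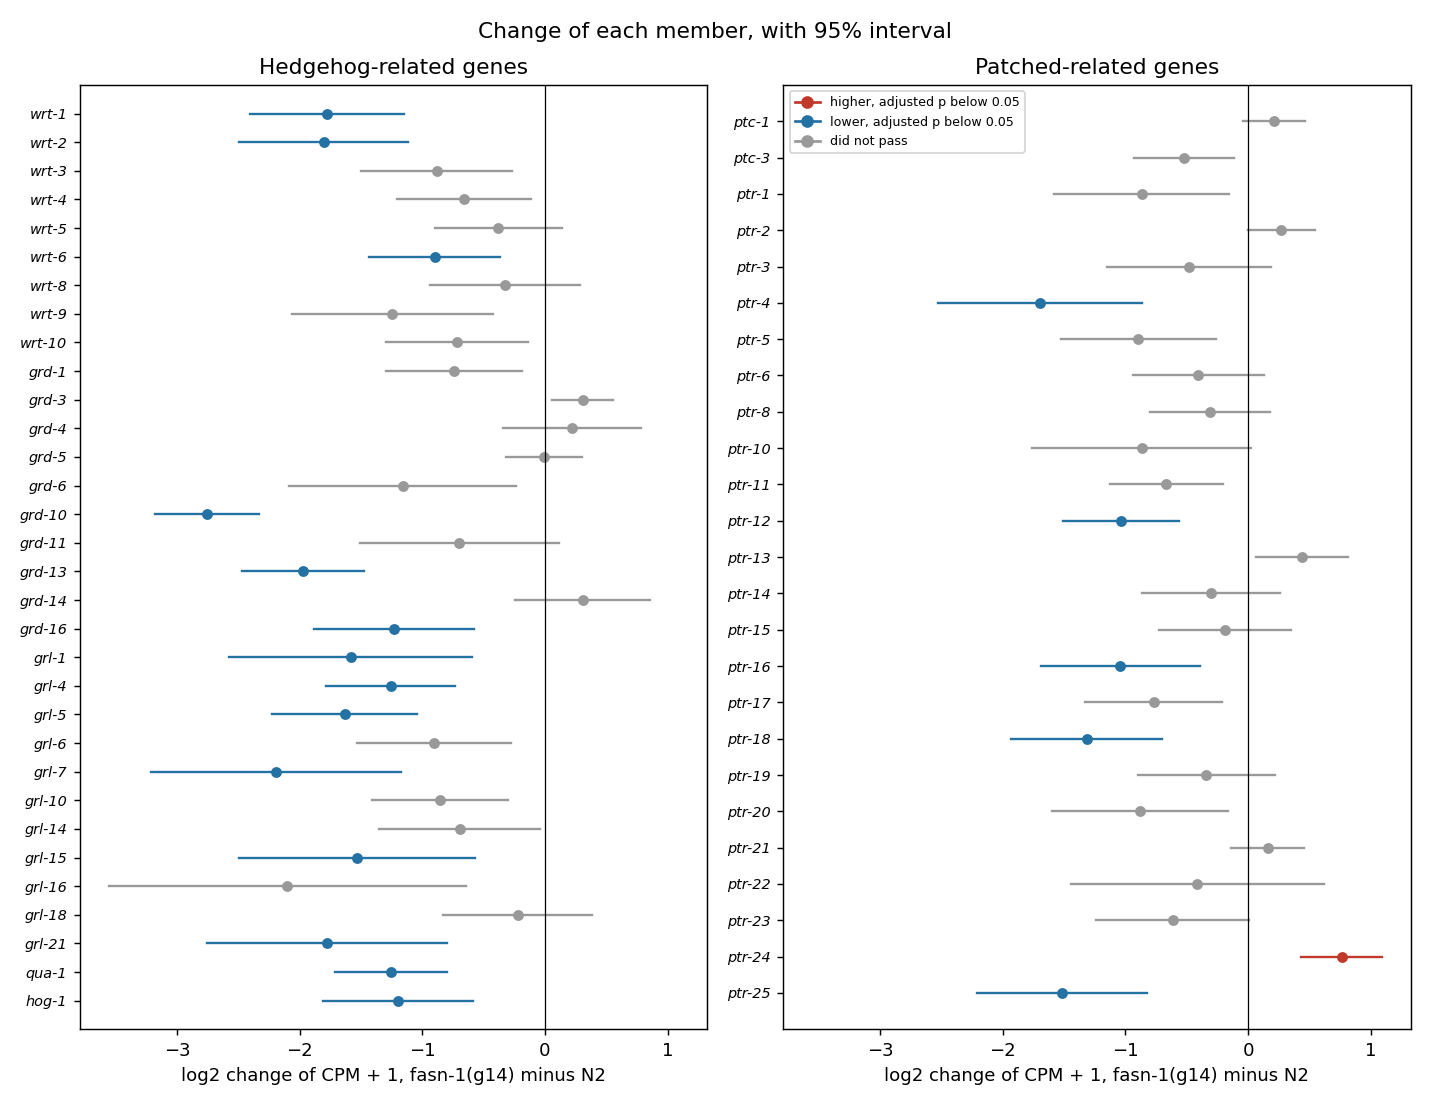
Change of log2(CPM + 1), fasn-1(g14) minus N2, for each member (points) with its 95% interval from limma (lines); blue marks genes lower and red genes higher at an adjusted p below 0.05. Among the hedgehog-related genes 14 points are blue, with grd-10 lowest at -2.76, and among the patched-related genes 5 are blue and ptr-24 is the red one at 0.76.

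The warthog genes were all below wild type in their fitted change (9 of 9, beside 49.7% of all genes tested). Of the 9, 3 passed (33.3%, beside 10.7% of all genes tested that fell): wrt-1, wrt-2 and wrt-6. Expression of wrt-1 (WBGene00006947, chromosome II, 7530996 to 7533246, plus strand, WBcel235) was 11.02 and 5.76 CPM in the mutant, against 28.1 and 31.7 CPM in wild type. It fell (log2 change -1.78, SE 0.27; limma, adjusted p = 0.0116) and was 3.57-fold lower as a ratio of mean CPM. The gene wrt-2, whose promoter is widely used to mark the seam cells of the epidermis, was at 8.04 and 4.01 CPM in the mutant and 19.9 and 25.4 CPM in wild type (log2 change -1.80, SE 0.29; limma, adjusted p = 0.0147). In wrt-1 and wrt-2 the higher mutant library was less than the lower wild-type library by more than the mutant libraries differed from each other. At a lower level, wrt-6 had 2.97 and 2.91 CPM in the mutant and 5.97 and 6.75 CPM in wild type (log2 change -0.90, SE 0.23; limma, adjusted p = 0.0410).

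The warthog gene with the most signal, wrt-10, lies tail to tail with wrt-1, with 15 bases between their annotated ends. It is known as a signal from outside the germline that acts through ptc-1 on oocyte quality in ageing animals. It stood at 33.6 and 19.4 CPM in the mutant and 37.1 and 49.2 CPM in wild type, and its change did not pass (log2 change -0.72, SE 0.25; limma, adjusted p = 0.0895). The groups did not overlap, but the mutant libraries differed by more than the gap between the groups. Of the remaining members, wrt-9 came closest to the threshold (log2 change -1.24; limma, adjusted p = 0.0535), and wrt-3, wrt-4, wrt-5 and wrt-8 had log2 changes between -0.88 and -0.32. The calls of wrt-2 and wrt-6 were lost without wild-type replicate 4 (adjusted p = 0.0513 and 0.353), and that of wrt-6 also without wild-type replicate 3 (0.199), whereas wrt-1 kept its call without either.

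The groundhog genes held both the largest fall among the members and a neighbour that was not lower. Of these genes, 3 stand head to tail on the plus strand of chromosome IV (WBcel235): grd-13 (3438312 to 3439507), grd-3 (3439655 to 3440453) and grd-10 (3441055 to 3441841), with gaps of 147 and 601 bases. At one end, grd-13 was at 5.68 and 4.08 CPM in the mutant, against 20.5 and 23.3 CPM in wild type (log2 change -1.97, SE 0.21; limma, adjusted p = 0.00465). At the other end, grd-10 was at 5.74 and 4.47 CPM in the mutant, against 38.1 and 42.2 CPM in wild type, 7.86-fold lower as a ratio of means (log2 change -2.76, SE 0.18; limma, adjusted p = 9.84e-04). Both mutant libraries were far below both wild-type libraries in each of these genes, and the mutant libraries lay close together.

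Between them, grd-3 was at 41.9 and 42.0 CPM in the mutant, against 34.1 and 33.4 CPM in wild type. It was above wild type in both mutant libraries, but the change did not pass (log2 change 0.31, 95% interval 0.06 to 0.55; limma, adjusted p = 0.0880). The ratio of grd-10 to grd-3 within a library was 0.137 and 0.106 in the mutant and 1.12 and 1.26 in wild type, and that of grd-13 to grd-3 was 0.135 and 0.0971 in the mutant and 0.603 and 0.697 in wild type. Tested by an exact two-sided permutation test over the 4 libraries, each difference in log2 ratio (-3.30 and -2.50) had p = 0.333, the smallest value that 2 against 2 libraries allow. The calls of grd-10 and grd-13 held in each of the 14 alternative settings tried, and among the 19 genes that fell these were the only 2 of which that was true.

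**Figure D3:**
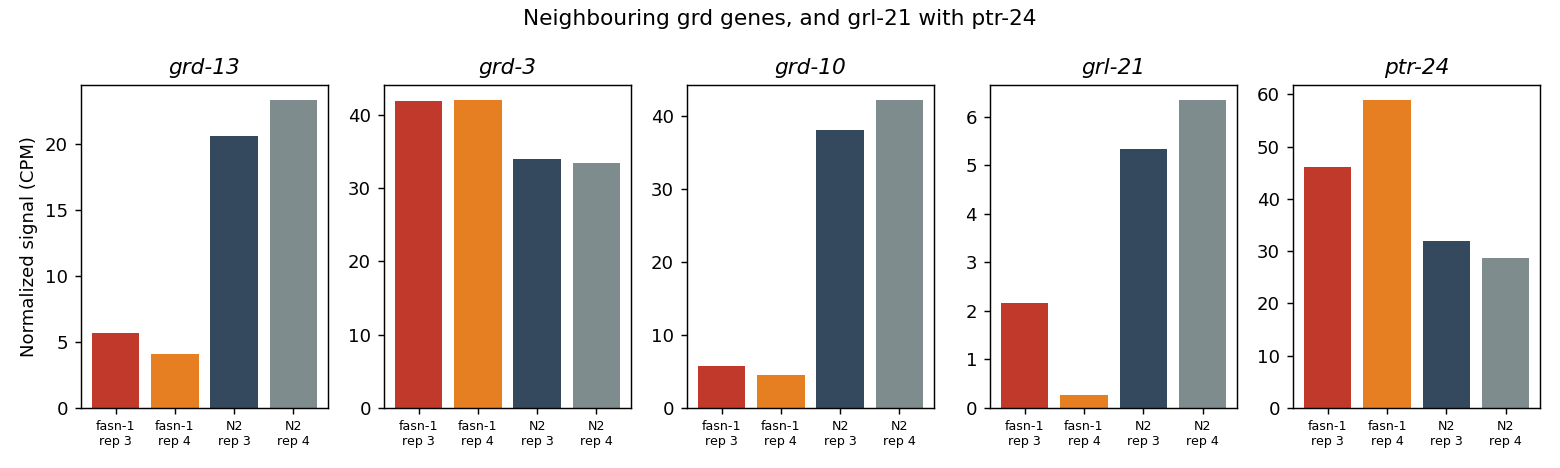
Normalized signal (CPM, bars from 0, own scale in each panel) in each library of the neighbouring genes grd-13, grd-3 and grd-10, and of grl-21 and ptr-24. The bars of grd-13 and grd-10 are short in both mutant libraries (4.08 to 5.74 CPM) while those of grd-3 are slightly taller than in wild type, and the mutant bars of grl-21 are low where those of ptr-24 are high.

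A second pair of adjacent groundhog genes on chromosome X, grd-14 and grd-4, did not pass in either direction (log2 change 0.31 and 0.22; limma, adjusted p = 0.401 and 0.567). The gene grd-16 fell at a low level, with 0.946 and 0.389 CPM in the mutant and 2.45 and 3.31 CPM in wild type (log2 change -1.23, SE 0.28; limma, adjusted p = 0.0304). It entered the test only because wild type reached 1 CPM, so a difference in this direction was built into its inclusion. That call was lost without wild-type replicates 3 and 4 in turn (adjusted p = 0.0877 and 0.234) and with the count tests (0.0501 by edgeR and 0.058 by DESeq2). At a level like that of grd-3, grd-5 had 38.5 and 31.3 CPM in the mutant and 34.2 and 35.5 CPM in wild type, with overlapping groups and a 95% interval of the log2 change from -0.31 to 0.31. The remaining grd-1, grd-6 and grd-11 did not pass, with log2 changes of -0.74, -1.16 and -0.70.

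Among the wrt, grd, grl and ptr families the ground-like genes had the highest share of falls, 6 of 11, with no test between families. That is 54.5%, beside 10.7% of all genes tested. All 11 had a negative fitted change (median -1.53), beside 49.7% of all genes tested. The gene grl-7, whose secreted product is taken up from the extracellular space by the patched-related protein PTR-18, was at 8.31 and 2.33 CPM in the mutant and 21.2 and 28.2 CPM in wild type (log2 change -2.19, SE 0.44; limma, adjusted p = 0.0227). Of the genes in this family, grl-4 had the second highest signal, with 19.3 and 11.7 CPM in the mutant and 34.2 and 40.8 CPM in wild type (log2 change -1.26, SE 0.23; limma, adjusted p = 0.0172). For grl-5 the values were 3.18 and 2.01 CPM in the mutant and 9.74 and 10.3 CPM in wild type (log2 change -1.63, SE 0.25; limma, adjusted p = 0.0125). The groups were separate in grl-4, grl-5 and grl-7, and in each the mutant replicate 4 was lower than replicate 3.

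Levels of grl-1, grl-15 and grl-21 in mutant replicate 3 lay between those of replicate 4 and wild type. In grl-1 the mutant values were 2.77 and 0.453 CPM, against 6.03 and 6.00 CPM in wild type (log2 change -1.58, SE 0.43; limma, adjusted p = 0.0468), and in grl-15 they were 5.88 and 1.68 CPM, against 11.3 and 11.5 CPM in wild type (log2 change -1.53, SE 0.41; limma, adjusted p = 0.0466). In grl-21 they were 2.16 and 0.259 CPM, against 5.34 and 6.34 CPM in wild type (log2 change -1.77, SE 0.42; limma, adjusted p = 0.0334). The level of grl-21 in mutant replicate 4 rests on 4 reads. With 0.25 CPM added before the log in place of 1, the calls of grl-1, grl-15 and grl-21 were lost (limma, adjusted p = 0.0736, 0.0641 and 0.0606). They were also lost by edgeR on the recovered reads (adjusted p = 0.0994, 0.0806 and 0.0794). Those of grl-4, grl-5 and grl-7 held in both settings. By DESeq2 grl-4, grl-5, grl-15 and grl-21 were called, and grl-1 and grl-7 were not. Without wild-type replicate 4 none of the 6 ground-like calls passed (limma, adjusted p between 0.0563 for grl-7 and 0.146 for grl-1), and without wild-type replicate 3 those of grl-4, grl-5 and grl-7 did.

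The most abundant ground-like gene, grl-16, shows how far the mutant libraries differed. It stood at 27.4 and 4.53 CPM in the mutant, against 51.1 and 54.4 CPM in wild type, and its log2 change of -2.10 did not pass with a standard error of 0.62 (limma, adjusted p = 0.0614). Also outside the threshold was grl-10 (3.38 and 2.78 CPM in the mutant, 5.84 and 6.95 CPM in wild type; limma, adjusted p = 0.0509). Members grl-6 and grl-14 were near the lower limit of measurement, with 1 read of grl-6 in mutant replicate 4. The gene grl-18, which marks socket glia of sensory organs in the head, had 1.28 and 1.04 CPM in the mutant and 1.19 and 1.89 CPM in wild type, with overlapping groups.

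Quahog, qua-1, which is needed for molting and larval growth, fell. It was at 15.8 and 11.9 CPM in the mutant and 29.7 and 39.3 CPM in wild type (log2 change -1.25, SE 0.19; limma, adjusted p = 0.0127). The Hog-domain gene hog-1 fell at a low level, with 1.15 and 0.583 CPM in the mutant and 3.08 and 3.37 CPM in wild type (log2 change -1.20, SE 0.26; limma, adjusted p = 0.0283). The mutant values of both genes lay below all wild-type values. Without wild-type replicate 4 neither passed (adjusted p = 0.0636 for qua-1 and 0.198 for hog-1), and without wild-type replicate 3 hog-1 did not (0.121).

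Exons of 12 members overlap those of another gene in the annotation, 4 of them among the genes that fell (grl-1, grl-15, hog-1 and wrt-2), and the library kit does not mark strand. The partner of hog-1, atat-2 on the other strand, fell too (3.18 and 1.23 CPM in the mutant, 5.84 and 6.88 CPM in wild type; limma, adjusted p = 0.0442). Reads from exons that these genes share cannot be told apart. The partners of grl-1, grl-15 and wrt-2, which are hir-1, Y75B8A.19 and pccb-1, did not pass (log2 change -0.51, 0.15 and 0.27). Of the members that did not pass, grl-10 overlaps rpl-39, grl-14 overlaps sbt-1 and ptr-15 overlaps mec-1, and these 3 partners fell (log2 change -0.39, -1.40 and -1.15).

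Of the Patched genes proper, neither passed. The gene ptc-1 (WBGene00004208), which is needed for cytokinesis in the germline, had the most signal per length of all members: 172 CPM per kilobase of exon in the mutant and 148 in wild type. Its level was 780 and 962 CPM in the mutant and 759 and 739 CPM in wild type, above wild type in both mutant libraries (log2 change 0.21, SE 0.11, 95% interval -0.04 to 0.46; limma, adjusted p = 0.219). The gene ptc-3, which is essential for viability, was at 39.9 and 30.2 CPM in the mutant and 43.8 and 57.7 CPM in wild type (log2 change -0.52, SE 0.17; limma, adjusted p = 0.0828). The fitted changes of the pair have opposite signs, neither past the threshold. The ratio of wrt-10 to ptc-1, signal and receptor in the germline pathway named above, was 0.0431 and 0.0202 in the mutant and 0.0489 and 0.0666 in wild type.

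The second gene in order of signal per length was ptr-2, which is needed for the permeability barrier of the eggshell, at 130 CPM per kilobase in the mutant and 107 in wild type. It stood at 333 and 423 CPM in the mutant and 323 and 299 CPM in wild type and did not pass (log2 change 0.27, SE 0.12; limma, adjusted p = 0.151). As with ptc-1, mutant replicate 4 was the highest library. Beside these values, 0 of 17 germline genes passed in either direction (4 at an unadjusted p below 0.05, 23.5% beside 32.9% of all genes tested). Their median log2 change was 0.23, with 2 of the 17 below 0. In 12 both mutant libraries lay above both wild-type libraries, beside 31.2% of all genes tested. The summed level of the germline genes was 10190 and 12666 CPM in the mutant and 9984 and 9333 CPM in wild type. The part of the germline in the levels of ptc-1 and ptr-2 was not tested.

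One patched-related gene rose. For ptr-24 (WBGene00004238, chromosome X, 13338028 to 13348125, plus strand, WBcel235) the level was 46.2 and 58.9 CPM in the mutant and 32.0 and 28.7 CPM in wild type (log2 change 0.76, SE 0.14; limma, adjusted p = 0.0185). Together with grl-21, this gene is known from work on bacterial diet, in which GRL-21 and PTR-24 act as signal and receptor in the control of mitochondrial shape and stored fat. Here grl-21 fell and ptr-24 rose, and the ratio of grl-21 to ptr-24 was 0.0469 and 0.00440 in the mutant and 0.167 and 0.221 in wild type. Neither call held without wild-type replicate 4 (adjusted p = 0.121 for grl-21 and 0.0875 for ptr-24), and grl-21 was not called by edgeR on the recovered reads (0.0794).

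The ptr genes that fell were 5 of 23 (21.7%, beside 10.7% of all genes tested): ptr-4, ptr-12, ptr-16, ptr-18 and ptr-25. The gene ptr-4, which is needed to pattern the apical extracellular matrix and for molting, was at 12.9 and 5.18 CPM in the mutant and 25.2 and 33.6 CPM in wild type (log2 change -1.70, SE 0.36; limma, adjusted p = 0.0252). The gene ptr-18, whose product removes GRL-7 by endocytosis, was at 10.9 and 6.09 CPM in the mutant and 20.2 and 23.8 CPM in wild type (log2 change -1.32, SE 0.26; limma, adjusted p = 0.0228). Both ptr-18 and grl-7 fell, and the ratio of grl-7 to ptr-18 was 0.759 and 0.383 in the mutant and 1.05 and 1.18 in wild type.

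With 17.6 and 8.55 CPM in the mutant and 32.8 and 42.0 CPM in wild type, ptr-25 fell by 1.52 on the log2 scale (SE 0.30; limma, adjusted p = 0.0219). For ptr-12 the mutant values were 5.47 and 4.99 CPM and the wild-type values 11.4 and 12.1 CPM (log2 change -1.04, SE 0.20; limma, adjusted p = 0.0219), and ptr-16 had 4.05 and 2.27 CPM in the mutant and 6.97 and 7.76 CPM in wild type (log2 change -1.04, SE 0.28; limma, adjusted p = 0.0462). Of the 5, ptr-12 had the closest mutant replicates. Without wild-type replicate 4 none of the 6 calls among patched-related genes passed (limma, adjusted p between 0.0637 for ptr-25 and 0.287 for ptr-16), and without wild-type replicate 3 those of ptr-12 and ptr-16 did not.

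The other 17 ptr genes did not pass, with ptr-21 second in the family by CPM averaged over the 4 libraries, though below ptr-24 in the mutant mean (52.7 and 43.7 CPM in the mutant, 40.2 and 45.5 CPM in wild type, overlapping groups). At one side ptr-13 was above wild type in both mutant libraries (19.3 and 21.1 CPM in the mutant, against 13.6 and 15.7 CPM in wild type; log2 change 0.44; limma, adjusted p = 0.102). At the other, ptr-1, ptr-5, ptr-10, ptr-11, ptr-17, ptr-20 and ptr-23 had log2 changes between -0.89 and -0.62. The gene ptr-10, a marker of glia of sensory organs, was at 4.19 and 1.36 CPM in the mutant and 4.71 and 6.14 CPM in wild type (log2 change -0.87, SE 0.38; limma, adjusted p = 0.162). In ptr-22 mutant replicate 3 was the highest of all libraries and replicate 4 the lowest (3.72 and 0.777 CPM in the mutant, against 2.45 and 3.31 CPM in wild type).

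The mutant libraries did not move equally, and this touches every count above. In 49 of the 57 members mutant replicate 4 was lower than mutant replicate 3 (86.0%, beside 51.9% of all genes tested). The 8 exceptions were grd-1, grd-3, grd-4, ptc-1, ptr-2, ptr-11, ptr-13 and ptr-24, and 6 of these had a fitted change above 0. Against the wild-type mean, the median log2 change of the hedgehog-related genes was -0.78 in replicate 3 and -1.29 in replicate 4, and that of the patched-related genes was -0.26 and -0.80. In both families replicate 4 thus lay farther from wild type. With mutant replicate 3 left out 39 of the 57 members were called lower and 5 higher (all genes 25.2% lower), and with mutant replicate 4 left out 24 were lower and 1 higher (14% of all genes lower). Without wild-type replicate 3, 11 were lower and 1 higher (3.43% of all genes lower), and without wild-type replicate 4, 3 were lower and 0 higher (1.38%). Such a fit leaves 1 library on its own in a group, and its spread is taken from the remaining pair.

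**Figure D4:**
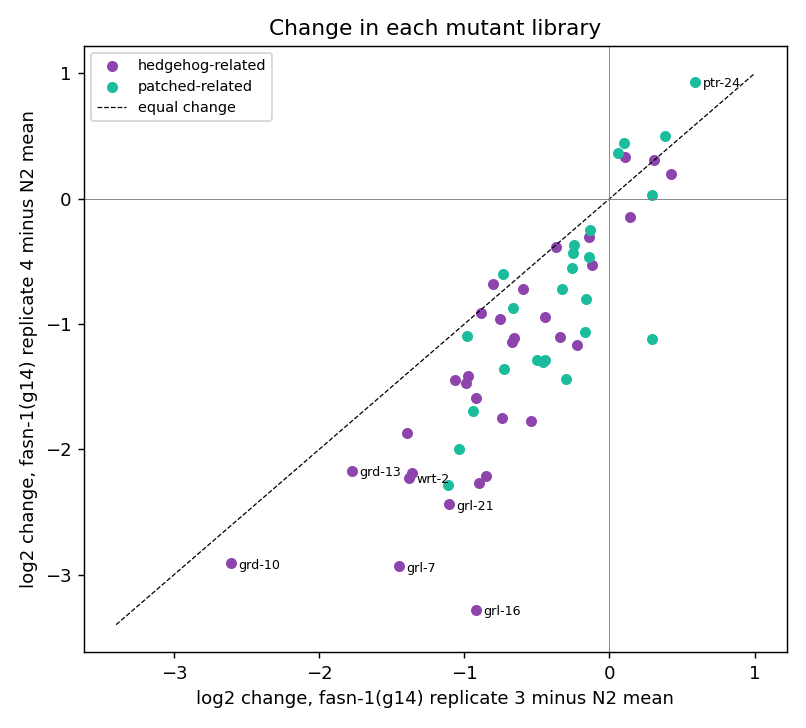
Change of log2(CPM + 1) against the mean of the N2 libraries in fasn-1(g14) replicate 3 (horizontal) and replicate 4 (vertical), 1 point per member, with the dashed line at equal change. Below the line lie 49 of the 57 points, grl-16 farthest, while grd-10 and grd-13 lie near it.

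Count tests on the recovered reads called fewer members. By edgeR 13 members were lower and 1 higher (all genes 913 lower and 439 higher), and by DESeq2 13 were lower and 1 higher (1057 and 507). Of the 19 genes that fell by limma, 11 were called by both: grd-10, grd-13, grl-4, grl-5, qua-1, wrt-1, wrt-2, ptr-4, ptr-12, ptr-18 and ptr-25. Fitted by limma without a mean-variance trend, 7 members were lower and 0 higher (4.2% of all genes lower), 6 of them among the 19.

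Among 19 other genes of the pathway, chosen for homology to Hedgehog-pathway or sterol-sensing proteins of other animals, 3 fell and 0 rose (15.8% lower, beside 10.7% of all genes tested), with a median log2 change of -0.05. By limma, 5 of the 19 passed at an unadjusted p below 0.05 (26.3%, beside 32.9% of all genes tested). The gene hhat-1, a homologue of the acyltransferase that adds a fatty acid to Hedgehog in flies and vertebrates, was at 5.27 and 2.07 CPM in the mutant and 11.8 and 13.8 CPM in wild type (log2 change -1.65, SE 0.34; limma, adjusted p = 0.0249). The catalytic and regulatory subunit genes of protein kinase A, kin-1 and kin-2, were at 66.1 and 46.0 CPM and at 89.7 and 79.0 CPM in the mutant, against 97.3 and 112 CPM and 111 and 120 CPM in wild type (log2 change -0.91 and -0.45; limma, adjusted p = 0.0177 and 0.0253). In all 3 genes the groups were separate. The gene tra-1, the homologue of the Gli transcription factors, did not pass, with overlapping groups (log2 change 0.00, SE 0.13). The patched-related gene daf-6, which shapes the channel of sensory glia, and che-14, a homologue of Dispatched, did not pass (log2 change -0.94 and -0.55). Without wild-type replicate 3, 1 of the 19 fell and without wild-type replicate 4, 0 did.

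The molting list holds no member. It shares lrp-1 with the pathway list, bed-3, nhr-23 and nhr-25 with the epidermal markers and let-653 with the excretory markers below. Of 27 genes tested, 12 fell and 0 rose (44.4%, beside 10.7% of all genes tested), with a median log2 change of -0.75. The mucin-like cuticle gene dpy-6 was at 2.64 and 1.68 CPM in the mutant and 13.4 and 18.8 CPM in wild type (log2 change -2.43, SE 0.27; limma, adjusted p = 0.0051), and acn-1, lpr-3 and grh-1 fell as well (log2 change -1.52, -1.65 and -1.46). The nuclear receptor gene nhr-23, which drives molting genes in larvae, had 86.2 and 94.7 CPM in the mutant and 87.6 and 82.8 CPM in wild type (log2 change 0.08, SE 0.09). For nhr-25, the nuclear receptor gene upstream of grl-21 in the diet pathway, the values were 26.1 and 14.5 CPM in the mutant and 23.9 and 21.9 CPM in wild type, with overlapping groups. The number of molting genes that fell was 3 when wild-type replicate 4 was left out and 21 when mutant replicate 3 was.

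**Figure D5:**
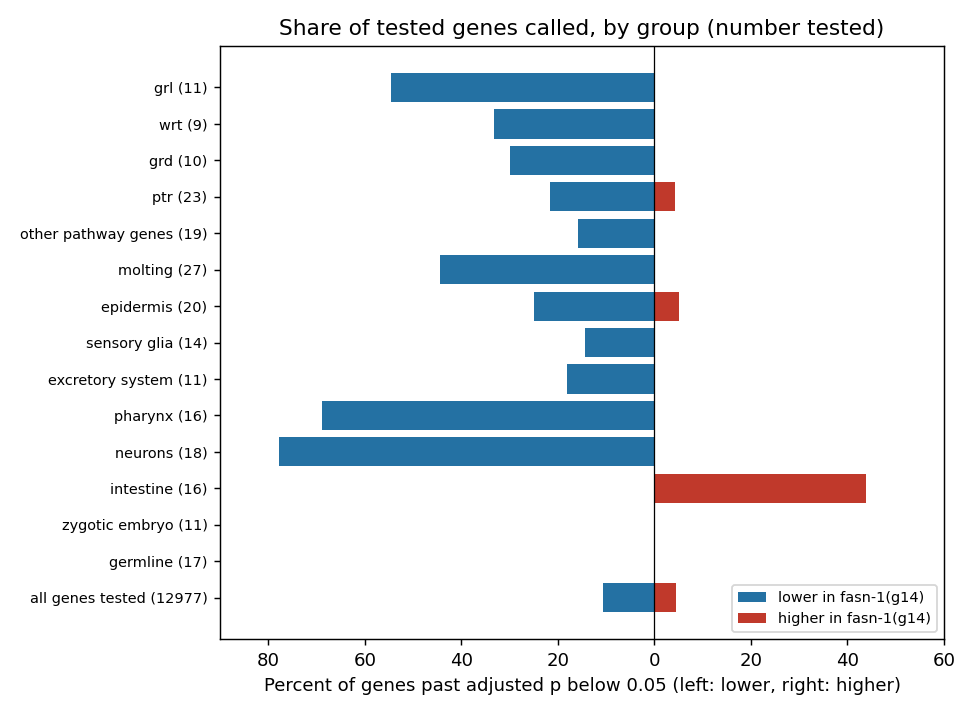
Percent of tested genes called at an adjusted p below 0.05 in each subfamily, gene list and in all genes tested, with genes lower in fasn-1(g14) to the left of 0 and genes higher to the right, and the number tested in brackets. The grl genes reach 54.5% lower and the ptr genes 21.7%, beside 10.7% of all genes, and the pharynx and neuron lists reach 68.8% and 77.8%.

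Markers of tissues that could carry these genes are read beside the 10.7% of all genes tested that fell and the 4.41% that rose. The sensory glia list shares daf-6 and che-14 with the pathway list, and elt-7 is in both the intestinal and the early embryonic list. Of 20 epidermal markers tested 5 fell and 1 rose (25% and 5%; median log2 change -0.47). Their summed level was 2061 and 1828 CPM in the mutant and 2129.8 and 2270.4 CPM in wild type. These sums include the riser, col-19, at 692 and 827 CPM in the mutant and 369 and 293 CPM in wild type (limma, adjusted p = 0.00457). Its rise offsets falls of other markers in the sums, and 16 of the 20 had a log2 change below 0. Of 14 markers of sensory glia 2 fell (14.3%, near the share of all genes called lower; median -0.74; sums of 306 and 267 CPM in the mutant against 349 and 363 CPM in wild type). All 14 had a log2 change below 0, and in 12 both mutant libraries lay below both wild-type libraries (32.9% of all genes tested). At an unadjusted p below 0.05, 64.3% of them passed, beside 32.9% of all genes tested. Most of each glia sum came from lit-1 and glt-1, which did not pass. Levels of lit-1 were 171 and 150 CPM in the mutant and 176 and 176 CPM in wild type. Those of glt-1 were 52.5 and 64.8 CPM in the mutant and 55.9 and 62.2 CPM in wild type. Of 11 markers of the excretory system 2 fell (18.2%; median -0.54; sums of 513 and 537 CPM in the mutant against 536 and 546 CPM in wild type). Most of each sum came from vha-8, at 343 and 380 CPM in the mutant and 340 and 337 CPM in wild type, and 8 of the 11 had a log2 change below 0. Larger shares of the pharynx list (11 of 16 lower, 68.8%, sums of 509.9 and 242 CPM in the mutant against 1497 and 1619 CPM in wild type) and of the neuron list (14 of 18 lower, 77.8%, sums of 528 and 418 CPM in the mutant against 802 and 855 CPM in wild type) fell. Of 16 intestinal markers 7 rose and 0 fell (43.8% higher; sums of 63896 and 62069 CPM in the mutant against 37081 and 40287 CPM in wild type). Most of each sum came from vit-6 and vit-2. Levels of vit-6 were 31012.5 and 30431.4 CPM in the mutant, against 16954.5 and 18387.7 CPM in wild type (limma, adjusted p = 0.0351). Those of vit-2 were 28618.4 and 27181.6 CPM, against 16492 and 18351.5 CPM, and its change did not pass (limma, adjusted p = 0.0525). Of 11 early embryonic genes 0 passed by limma (3 at an unadjusted p below 0.05, 27.3% beside 32.9% of all genes tested). Their sums were 198 and 189.7 CPM in the mutant against 184 and 175 CPM in wild type. Most of each sum came from pal-1, at 125 and 140 CPM in the mutant and 111 and 111 CPM in wild type. No gene of these lists in the table stood at 0 in any library, the lowest being abu-6 of the pharynx list, with 0.405 and 0.0648 CPM in the mutant and 0.691 and 0.337 CPM in wild type. The part of tissue content in the members' changes was not tested.

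The limit of 1 CPM in 2 libraries kept 4 listed genes out: grd-2 (1.55 and 0.259 CPM in the mutant, 0.942 and 0.742 CPM in wild type), grd-12 (0.541 and 0.194 CPM in the mutant, 0.880 and 1.75 CPM in wild type), grl-12 (0.811 and 0.194 CPM in the mutant, 0.754 and 2.09 CPM in wild type) and ptd-2 (0.473 and 0.324 CPM in the mutant, 0.565 and 1.35 CPM in wild type). Just inside it were wrt-8 (1.01 and 0.518 CPM in the mutant, 1.38 and 1.01 CPM in wild type) and grl-6 (0.473 and 0.0648 CPM in the mutant, 1.57 and 1.15 CPM in wild type). On chromosome IV 5 of 9 members fell, on chromosome I 1 of 8, on II 3 of 11, on III 2 of 3, on V 4 of 14 and on X 4 of 12, with no test of position. The share of all genes lower on each chromosome was not computed, so these counts have no reference. Those on IV include grd-13 and grd-10, which lie close together, and grd-16, which reached 1 CPM in wild type alone.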

How the data were processed

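The authors deposited a table of normalized signal, which they call CPM, with genes in rows and libraries in columns. The column sums of 0.942 to 1.03 times 1e6 show a further scaling, so the values were treated as signal and tested as planned for CPM. Tools listed, per the submitters' processing notes, are HTSeq 0.12.4, Bowtie2 2.3.3.1 and edgeR 3.28.1, with no roles or settings. The authors' build and annotation: not given in the sources used here. A further 8 library columns were not used. Every value (100%) was a whole multiple of its column's smallest step within 0.001 read, which gave the recovered read counts. The floor of 3 reads stood at 0.188 to 0.203 CPM and covers counting error only. Of 13758 rows, 13747 matched 1 gene of Ensembl release 115 (WBcel235).

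Genes with at least 1 CPM in 2 libraries (12977; 781 rows removed) were fitted with limma 3.58.1 (R 4.3.3) on log2(CPM + 1), with group as the term and a mean-variance trend, two-sided, with Benjamini-Hochberg adjustment over all genes tested and a threshold of 0.05. Nothing in the labels says that replicates came from separate cultures, so p-values measure the spread between these libraries, which may be technical. The fit was also run on simulated counts with equal spread in the 4 libraries and changes planted only in genes with a mean of at least 5 CPM. It therefore does not check calls of lower genes, or calls at the unequal spread of these replicates. edgeR 4.0.16 and DESeq2 1.42.0 on recovered reads were alternatives. Replicates differed by more than sampling noise (chi-square per degree of freedom 13.3 in the mutant, 4.58 in wild type). Named genes are all members past the threshold, the 2 with the most signal per family, ptc-1, ptc-3, ptd-2, qua-1 and hog-1, and up to 4 called genes per list; others named were chosen after their values were seen. Members and lists were chosen with earlier results of these data known. Levels per length use the annotated exon length.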

Additional observations from a re-analysis of the deposited data

How the results depend on the processing

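Over the 14 alternatives, 10 of the member values changed sign, 65 lost and 45 gained a call, and 655 kept both direction and side of the threshold. The sign changes were all in members that had not passed. With quantile normalization the log2 changes were 0.00879 for grd-5, 0.14 for grl-18, 0.15 for ptr-15, 0.00986 for ptr-19 and 0.0538 for wrt-8. For grd-5, close to 0 throughout, they were 0.00269 with edgeR, 0.0105 with DESeq2 and between -0.149 and 0.14 with 1 library left out, above 0 without mutant replicate 4 or wild-type replicate 4. For ptr-22 they ranged from -1.12 to 0.29 with 1 library left out, above 0 without mutant replicate 4.

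With 1 library left out at a time, the genes lower numbered 3 to 24 for the hedgehog-related family, 0 to 15 for the patched-related family, 0 to 7 for the other pathway genes, 3 to 21 for molting and 179 to 3268 for all genes. Genes higher numbered 0 to 1, 0 to 4, 0 to 1, 0 to 1 and 151 to 2346 in the same order. The family medians ranged between -1.29 and -0.78 for hedgehog-related and between -0.80 and -0.26 for patched-related genes.

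A mean of at least 5 CPM left 34 members and gave 8 hedgehog-related falls with a median of -1.53, 5 molting falls, and 509 lower and 288 higher genes in all, from fewer genes tested. A pseudocount of 0.25 gave 7 molting falls, and one of 5 gave a hedgehog-related median of -0.49. Rescaling each column to 1e6 gave 361 genes higher in all, and quantile normalization 1 molting gene higher. By edgeR 9 hedgehog-related and 7 molting genes fell, and 913 in all, and by DESeq2 9 hedgehog-related genes fell. Without the trend in limma 6 hedgehog-related, 1 patched-related, 0 other pathway and 1 molting gene fell, 0 patched-related genes rose, and 545 genes were lower and 172 higher. Apart from the changes that follow from fewer genes or libraries, the cause was not tested.

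The replicate numbers are shared between the groups, but nothing says that they mark a common batch. The differences between replicates 3 and 4 in the 2 groups had a correlation across genes of -0.21. With the replicate number as a block 10 patched-related genes fell, and in all 30 members were lower and 1 higher, beside 1872 lower (14.4%) and 626 higher of all genes tested. Depth limits the lowest members: in mutant replicate 4 grl-6 had 1 read and grl-21 had 4.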
